A study of Bos taurus with 6 samples.

Results

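The genes described here encode actins and the proteins that bind or move actin filaments: smooth muscle α-actin (ACTA2), β-actin (ACTB), γ-actin (ACTG1), the transgelins TAGLN and TAGLN2, the calponins CNN1 and CNN2, the tropomyosins TPM1 and TPM2, and the myosin regulatory light chain MYL9. They are a chosen list of 10 genes, matched by symbol and Entrez identifier, out of the 19163 genes in the count table. The RNA came from F7, a single line of bovine embryonic stem cells derived from in vitro fertilized Holstein Friesian embryos. MC-F7, which the labels call 1M-F7, was grown on mouse embryonic fibroblasts (MEFs) that were alive but stopped from dividing by mitomycin C. MT-F7 was grown on MEFs that had been killed and fixed with methanol. Each group had 3 libraries, taken after 15 passages. Both groups were kept in a customized mTeSR1 basal medium with fibroblast growth factor and the WNT inhibitor IWR1, and the inhibitor Y-27632 was added at passage. The medium was refreshed daily for MC-F7 and every other day for MT-F7, so feeder and feeding interval cannot be told apart in this design. Before RNA extraction the dissociated cells were left on gelatin for a short time and the floating cells were collected. Such a step lets feeder cells attach and stay behind, and RNA of mouse feeders that remained in a library was not measured here. The paper reports that a larger share of reads aligned to cattle in MT-F7 than in MC-F7. It proposes that fixed feeders left less contamination in the cultures. The part of such a difference in the members' values was not tested.

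Actin is a globular protein that polymerizes into filaments, and β-actin and γ-actin form the filaments of nearly every non-muscle cell. Smooth muscle α-actin, TAGLN and CNN1 are best known from smooth muscle and myofibroblasts, where filaments are bundled with tropomyosin and pulled by myosin II. Many of these genes are targets of the transcription factor SRF, whose cofactors MRTFA and MRTFB are held back by free actin monomers, and their levels are known to respond to the stiffness and adhesion of the surface on which a cell grows.

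The total count of a library was 21958386 to 24933430. Every member had between 1468 and 110865 counts in each library. Counting alone thus gave an error of at most 2.61% for a member and was not the limit on any member's value below. Some other genes named below had far fewer counts, such as VIL1 with 8, 25 and 8 in the MT-F7 libraries. For those genes the counting error was larger. Genes of the mitochondrial genome took 16.3% to 28.3% of the counts in MC-F7 and 18.0% to 27.9% in MT-F7 and were highest in both replicate 3 libraries. The libraries of a group are not stated to come from separate cultures. If they are technical replicates, SDs and p values measure only the spread between these libraries. Levels are given as counts per 1000000 counts (CPM) after TMM normalization, and the groups were compared by edgeR's quasi-likelihood test with Benjamini-Hochberg adjustment over the 13001 genes that passed its filter on low counts. The threshold was an adjusted p under 0.05, and log2 fold changes are MT-F7 over MC-F7.

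Compared to MC-F7, MT-F7 had higher RNA levels of ACTA2, TAGLN and TPM2 and a lower level of CNN1. The 2 cytoplasmic actins, MYL9, CNN2, TAGLN2 and TPM1 did not pass the test. All 10 members passed the filter on low counts. Of them, 3 were higher and 1 was lower, where the background over all tested genes was 23.2% past the threshold, 11.9% higher and 11.3% lower. The log2 fold change was above 0 for 9 of the 10, and its median was 0.27 over the members and -0.0026 over all tested genes. The CPM values of the groups did not overlap for 6 members, which compares with a background of 40.0% of all tested genes. With so few members these counts are a description of the list and not a test of it. In bulk RNA a change in the number of cells that express a gene cannot be told apart from a change of its RNA within each cell.

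**Figure D1:**
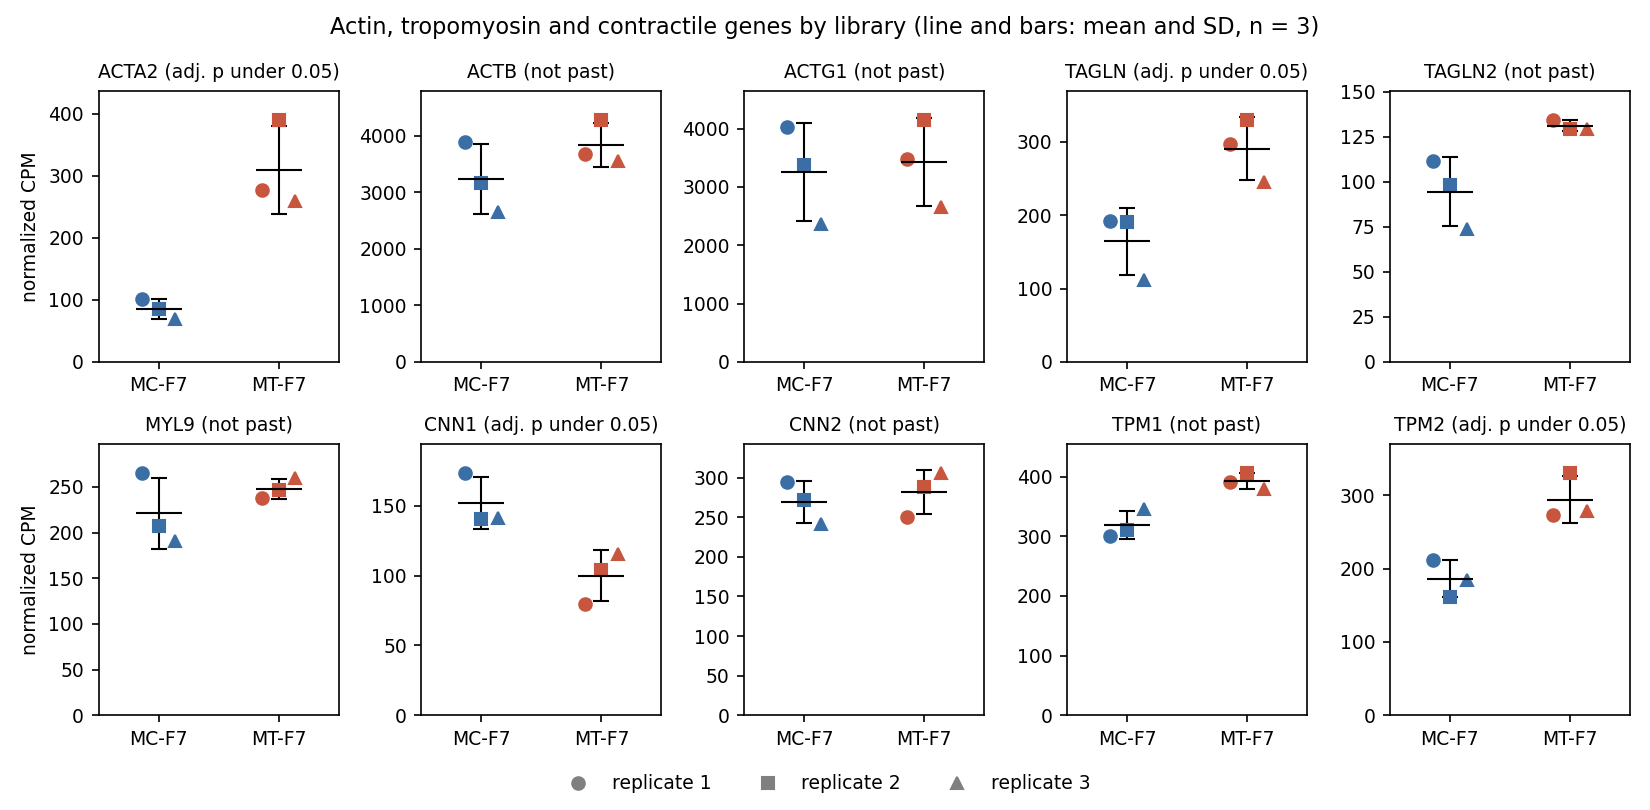
Normalized CPM (vertical axis, from 0) of the 10 members in each library of MC-F7 (blue) and MT-F7 (red), with marker shapes for the replicates and a line and bars for the mean and SD (n = 3). The groups are farthest apart in ACTA2, CNN1 is the member whose MT-F7 values all lie below those of MC-F7, and ACTB and ACTG1 overlap between the groups.

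ACTA2 (Entrez gene 515610), the actin that builds the contractile filaments of vascular smooth muscle and the usual marker of myofibroblasts, changed most among the members. Its CPM was 101, 85.9 and 68.6 in MC-F7 replicates 1 to 3 and 277, 391 and 259 in those of MT-F7. Even the lowest MT-F7 library was above every MC-F7 library, and replicate 2 was the highest of MT-F7. The mean rose from 85.3 ± 16.4 to 309 ± 71.2 CPM (SD, n = 3), a log2 fold change of 1.86 (SE 0.201, adjusted p = 3.46e-05), or 3.62-fold. The call held in all 6 fits with 1 library left out, with log2 fold changes from 1.66 to 2.0, and under each of the 18 alternatives.

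TAGLN (Entrez gene 513463) encodes transgelin, also called SM22α, a calponin-related protein that crosslinks actin filaments in smooth muscle and fibroblasts. Its CPM was 192, 190.5 and 112 in MC-F7, against 298, 331 and 245 in MT-F7. The groups did not overlap, and replicate 3 was the lowest library in both. The mean rose from 165 ± 46.0 to 291 ± 43.2 CPM, a log2 fold change of 0.82 (SE 0.210, adjusted p = 0.0128). Without MT-F7 replicate 2 the log2 fold change was 0.72 and the adjusted p was 0.0519, and over the 18 alternatives the adjusted p ran from 2.61e-05 to 0.0698.

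TAGLN2 (Entrez gene 282379), the transgelin of non-muscle cells, had 112, 98.0 and 73.7 CPM in MC-F7 and 135, 129 and 129.5 CPM in MT-F7. All MT-F7 values lay above those of MC-F7 and close to each other, whereas MC-F7 replicate 3 stood below its group. The log2 fold change of 0.47 (SE 0.167) was not past the threshold (adjusted p = 0.0583). It passed when MC-F7 replicate 1 was left out (log2 fold change 0.61, adjusted p = 0.0295) and in DESeq2 (adjusted p = 0.0357), with a range over the alternatives from 0.00536 to 0.157. Whether the 2 transgelins responded differently could not be separated from the spread, since their ratio of levels per length was 1.5 ± 0.187 in MC-F7 and 1.93 ± 0.290 in MT-F7 with values that overlapped.

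The tropomyosins are coiled-coil proteins that lie along the actin filament and set which myosins and other proteins can reach it. TPM2 (Entrez gene 497015) had 212, 162 and 185 CPM in MC-F7 and 272, 331 and 279 CPM in MT-F7, with no overlap between the groups. Its mean rose from 186 ± 25.2 to 294 ± 31.9 CPM, a log2 fold change of 0.66 (SE 0.160, adjusted p = 0.0098). This call was lost without MC-F7 replicate 2 (log2 fold change 0.57, adjusted p = 0.0808) and without MT-F7 replicate 2 (0.57, adjusted p = 0.0540), the lowest and the highest library of the gene, and its adjusted p over the alternatives ran from 6.84e-04 to 0.0808.

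TPM1 (Entrez gene 281544) had 301, 311 and 346 CPM in MC-F7 and 391, 407 and 379.7 CPM in MT-F7. The groups did not overlap here either, but the gap between the highest MC-F7 and the lowest MT-F7 library was small. The log2 fold change of 0.30 (SE 0.145) did not pass (adjusted p = 0.162). TPM1 was also the only member in which replicate 3 was the highest library of MC-F7. Each tropomyosin gene makes several isoforms by alternative promoters and exons, and counts per gene do not separate them.

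The calponins bind actin filaments and slow the myosin motor, with CNN1 typical of smooth muscle and CNN2 found in many cell types. CNN1 (Entrez gene 534583) had 174, 141 and 142 CPM in MC-F7 and 79.7, 104 and 115 CPM in MT-F7. Every MT-F7 library was below every MC-F7 library, the opposite order to ACTA2, TAGLN and TPM2. The mean fell from 152 ± 18.8 to 99.9 ± 18.3 CPM, a log2 fold change of -0.61 (SE 0.171, adjusted p = 0.0219).

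The direction of CNN1 was the same in all alternatives, but its call was the least stable of the 4. It was lost in 4 of the 6 fits with 1 library left out: the log2 fold change was -0.50 without MC-F7 replicate 1 (adjusted p = 0.0769), -0.66 without MC-F7 replicate 2 (0.0556), -0.47 without MT-F7 replicate 1 (0.109) and -0.64 without MT-F7 replicate 2 (0.0547). Over all alternatives the adjusted p ran from 8.49e-04 to 0.112, the highest on the deposited TPM values.

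CNN2 (Entrez gene 539019) had 295, 272 and 241 CPM in MC-F7 and 251, 288 and 306 CPM in MT-F7. The groups overlapped over most of their range, and the log2 fold change was 0.07 (SE 0.153, adjusted p = 0.799). The level of CNN1 relative to CNN2, per length, was 0.835, 0.732 and 0.831 in MC-F7, against 0.450, 0.513 and 0.534 in MT-F7. All MT-F7 values of this ratio lay below those of MC-F7, with a log2 difference of -0.68.

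MYL9 (Entrez gene 505964) encodes a regulatory light chain of myosin II, whose phosphorylation switches on contraction. It had 265, 207 and 191 CPM in MC-F7 and 237, 247 and 259.6 CPM in MT-F7. MC-F7 replicate 1 was above all MT-F7 libraries and the other MC-F7 libraries were below them, so the groups overlapped. The log2 fold change was 0.17 (SE 0.161, adjusted p = 0.50).

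ACTB and ACTG1 encode the 2 cytoplasmic actins and are among the genes most often used as references. ACTB (Entrez gene 280979) had 3882, 3159.8 and 2644 CPM in MC-F7 and 3679, 4282 and 3558 CPM in MT-F7. MC-F7 replicate 1 lay within the MT-F7 range, while MC-F7 replicates 2 and 3 lay below it. The log2 fold change was 0.25 (SE 0.194, adjusted p = 0.388).

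ACTG1 (Entrez gene 404122) had 4022, 3370.4 and 2364 CPM in MC-F7 and 3477, 4154 and 2656 CPM in MT-F7. Replicate 3 was the lowest library in both groups, and the groups overlapped over most of their range. The log2 fold change was 0.08 (SE 0.231, adjusted p = 0.847), with a larger SE than any other member. The proteins of both genes are nearly identical and their coding sequences are alike, so that the split of reads between them, and between ACTA2 and the other muscle actins, depends on how the counting treated reads with more than 1 match, which is not given in the sources used here.

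The plot of log2 fold changes sets the members side by side with the range that leaving out 1 library gave. The ranges of ACTG1, from -0.11 to 0.26, and of CNN2, from -0.01 to 0.14, crossed 0. Those of the other 8 members stayed on 1 side of it.

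**Figure D2:**
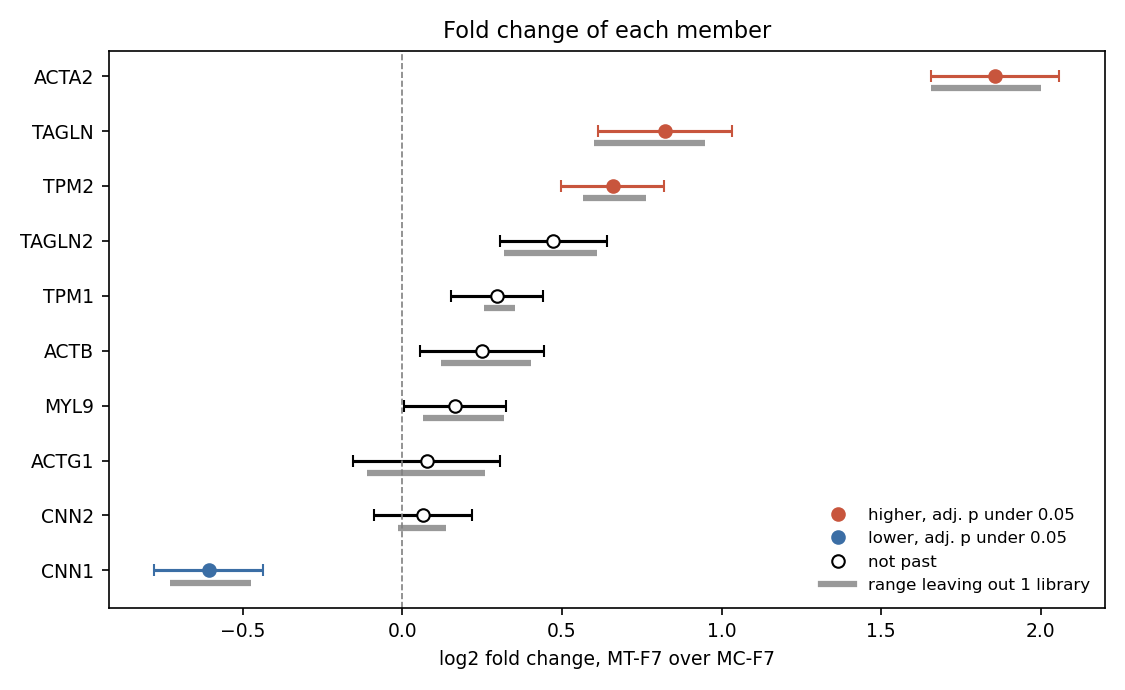
Log2 fold change of MT-F7 over MC-F7 for each member (horizontal axis; points with bars of 1 SE; filled points are past an adjusted p of 0.05). Grey bars give the lowest and highest value when 1 of the 6 libraries was left out, and the bars of ACTA2, at the top, and CNN1, at the bottom, lie on opposite sides of 0.

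β-actin was the loading control of the study's Western blots of bESCs, and ACTB was also a reference gene of its RT-PCR. The ACTB primers are shown because RT-PCR values of the study are relative to what they amplify; none of their letters is marked. From 5′ to 3′ they read:
ACTB forward: gcggcattcacgaaactacctt
ACTB reverse: tcctgcttgctgatccacatct

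Other genes often used as references were set beside ACTB, whose groups overlapped as given above. GAPDH, a glycolytic enzyme, fell from 7715 ± 1314 to 3276 ± 221 CPM (log2 fold change -1.24, SE 0.195, adjusted p = 6.31e-04). B2M, the light chain of MHC class I, fell from 23.2 ± 4.30 to 14.7 ± 1.61 CPM (log2 fold change -0.66, adjusted p = 0.0199). Its call was lost without MC-F7 replicate 1, MC-F7 replicate 2 or MT-F7 replicate 2, with adjusted p up to 0.0934. Log2 fold changes of HPRT1, TBP, PPIA, YWHAZ, SDHA and RPLP0 lay between -0.48 and 0.22 and were not past the threshold.

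For levels between genes, the deposited values per length were rescaled to 1000000 per library (TPM). ACTB and ACTG1 were far above the rest, at 2295 ± 463 and 2014 ± 545 TPM in MC-F7 and 2892 ± 413 and 2255 ± 588 TPM in MT-F7, and overlapped each other in both groups. In MC-F7 they were followed by MYL9 (175 ± 31.5), CNN2 (163 ± 19.4), TAGLN (139 ± 42.4), CNN1 (129.8 ± 15.7), TAGLN2 (91.7 ± 20.2), TPM2 (81.5 ± 9.59), TPM1 (79.4 ± 4.6) and ACTA2 (41.9 ± 8.59). In this order ACTG1 and MYL9, CNN1 and TAGLN2, and TPM1 and ACTA2 did not overlap, and every other pair of neighbours did.

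In MT-F7 the order after the cytoplasmic actins was TAGLN (261 ± 49.97), MYL9 (207 ± 7.19), CNN2 (179.7 ± 15.8), ACTA2 (161 ± 43.8), TPM2 (137 ± 19.9), TAGLN2 (134 ± 7.24), TPM1 (103 ± 8.22) and CNN1 (90.02 ± 15). Here the neighbours without overlap were ACTG1 and TAGLN, MYL9 and CNN2, and TAGLN2 and TPM1. ACTA2 moved from rank 10 to rank 6 and CNN1 from rank 6 to rank 10, whereas TAGLN moved from rank 5 to rank 3. The ranks were the same for all 10 members in both groups without the rescaling.

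**Figure D3:**
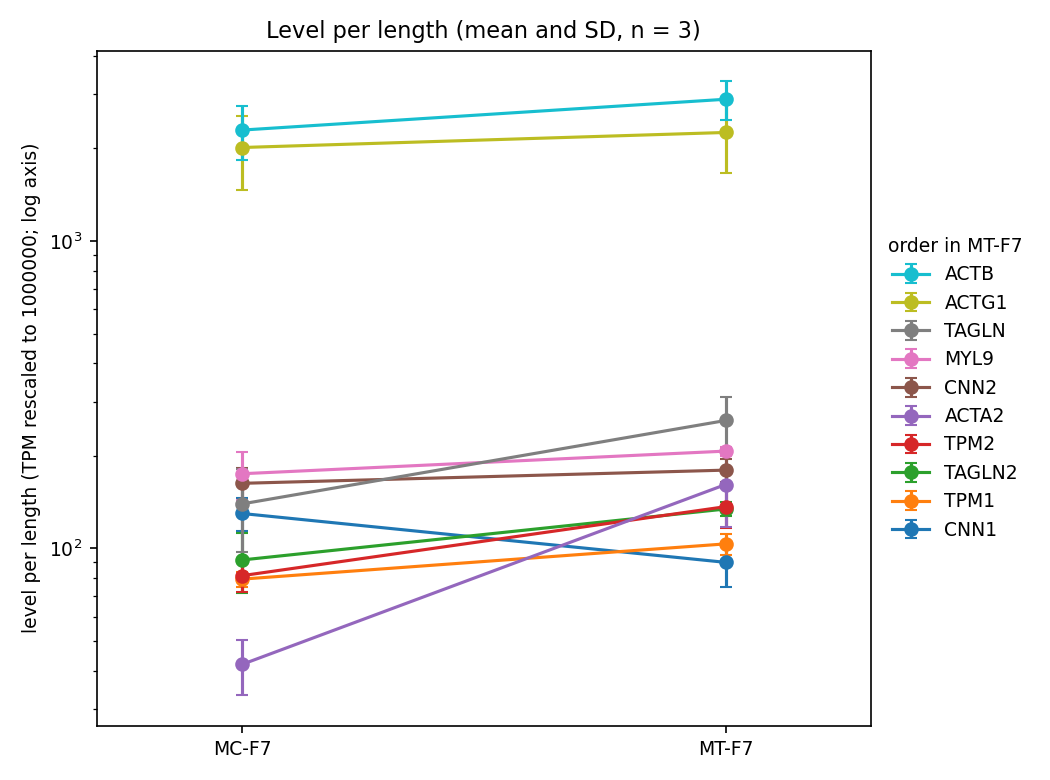
Level per length of the members in MC-F7 and MT-F7 (vertical log axis, TPM rescaled to 1000000 per library; points are means and bars SDs, n = 3). The lines of ACTA2, from 41.9 to 161 TPM, and CNN1, from 129.8 to 90.02 TPM, cross, and the 2 cytoplasmic actins stay above the others.

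Ratios of 2 members within a library showed how unequal the changes were. ACTA2 stood at 0.0180, 0.0188 and 0.0179 of the level of ACTB in MC-F7, nearly the same in all 3 libraries, and at 0.0521, 0.0630 and 0.0503 in MT-F7. This was a log2 difference of 1.59. Against CNN1, the level of ACTA2 was 0.335, 0.350 and 0.278 in the MC-F7 libraries, and in those of MT-F7 it was 2.0, 2.15 and 1.29. CNN1 was the more abundant of both RNAs in every MC-F7 library and ACTA2 in every MT-F7 library.

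Against TAGLN, ACTA2 went from 0.309 ± 0.0480 to 0.615 ± 0.0725, a log2 difference of 1.00 without overlap. TAGLN to CNN1 went from 1.07 ± 0.280 to 2.97 ± 0.806 and ACTA2 to MYL9 from 0.239 ± 0.0174 to 0.775 ± 0.186, also without overlap. The ratios ACTB to ACTG1 (1.16 ± 0.112 and 1.31 ± 0.197) and TPM2 to TPM1 (1.03 ± 0.182 and 1.32 ± 0.105) overlapped between the groups. Of the 9 ratios of members, 6 did not overlap. Each of these 6 had p = 0.1 in the two-sided exact permutation test, the smallest that 3 libraries against 3 allow, or 0.15 after Benjamini-Hochberg adjustment over the 9. The pairs were picked with the members' values known, and the ratios are a description.

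**Figure D4:**
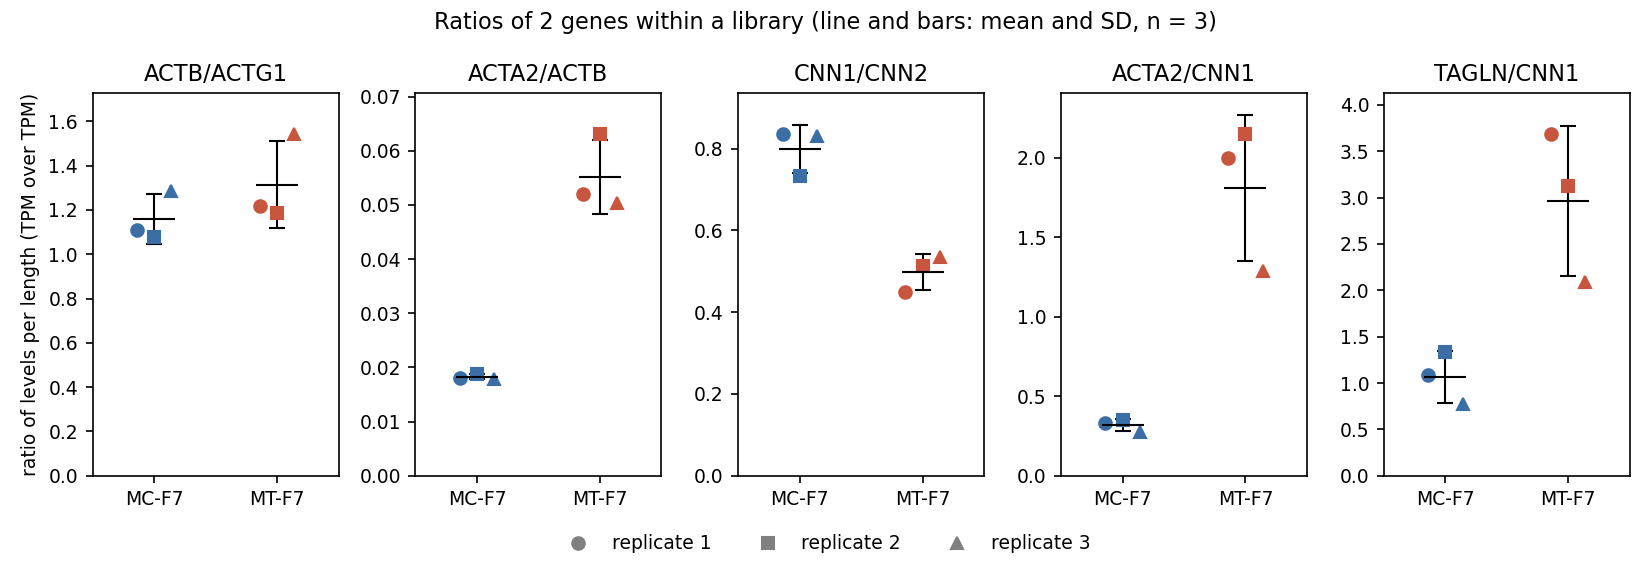
Ratios of the level per length of 2 genes in each library of MC-F7 (blue) and MT-F7 (red), with the mean and SD (n = 3); each panel has its own axis from 0. ACTA2/ACTB is nearly constant within MC-F7, at 0.0179 to 0.0188, and ACTB/ACTG1 overlaps between the groups.

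Taking all 6 actin genes together, per length, ACTA2 made up 0.934% ± 0.0265 of the actin RNA in MC-F7 and 2.94% ± 0.261 in MT-F7. ACTG2, the smooth muscle γ-actin of the gut, went the other way, from 1.22% ± 0.101 to 0.503% ± 0.0962. ACTB and ACTG1 together held nearly all of the rest, with 51.2% ± 2.14 and 44.4% ± 2.33 in MC-F7, against 53.5% ± 3.38 and 41.1% ± 3.30 in MT-F7. The muscle actins ACTA1 and ACTC1, included to complete the set after the values had been seen, held 1.3% ± 0.0751 and 1.00% ± 0.0800 in MC-F7, against 0.871% ± 0.0610 and 1.08% ± 0.0379 in MT-F7.

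Libraries ranked alike for many members. MC-F7 replicate 1 was the highest of its group for 9 of the 10 members and MC-F7 replicate 3 the lowest for 7, while MT-F7 replicate 2 was the highest of its group for 6. The share of all tested genes with these ranks was not computed, so they cannot be read as particular to the members. Outside the members, the sums of most other lists described below also fell at each step from replicate 1 to replicate 3 in MC-F7. For monomer binding and filament turnover they were 9144, 7246 and 6371 CPM. They were 3429, 3121 and 2755 CPM for the myosin II list and 2055, 1938 and 1369 CPM for the pluripotent stem cell markers. Exceptions were the focal adhesion list, at 3182, 2837 and 2861 CPM, and the fibroblast markers, at 345, 402 and 335 CPM. Summed over the members, and mostly from ACTB and ACTG1, the level was 9555, 7997 and 6367 CPM in MC-F7 and 9098, 10663 and 8186 CPM in MT-F7. In both groups this order was the reverse of the order of the mitochondrial share, which was 16.3%, 19.8% and 28.3% in MC-F7, against 23.2%, 18.0% and 27.9% in MT-F7. The part of this share in the members' spread was not tested. With both replicate 3 libraries left out, an alternative chosen after seeing the data, 6 passed, 5 higher and 1 lower, TAGLN2 (adjusted p = 0.0278) and TPM1 (0.0202) being the added ones.

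Other genes of the actin cytoskeleton were grouped in 8 lists, 7 of which are described, and 118 of their genes were in the count table and 114 were tested. Of these 9 rose and 11 fell, 17.5% in all, below the background of 23.2%, and their median log2 fold change was 0.10. All 20 kept their sign when 1 library was left out, and 12 stayed past the threshold in all 6 of these fits.

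Among the other actins, transgelins, calponins and tropomyosins, 1 of 7 tested genes passed. ACTG2 had 78.9, 73.5 and 59.4 CPM in MC-F7 and 39.8, 36.8 and 24.2 CPM in MT-F7, a fall of its log2 level by 1.07 (SE 0.197, adjusted p = 0.00188). Its groups did not overlap, as for 40.0% of all tested genes. Like CNN1, ACTG2 is a gene of differentiated smooth muscle, but ACTA2 and TAGLN, also known from smooth muscle, were higher.

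Of 16 myosin II chains and regulators, 2 rose and 2 fell. CALD1, or caldesmon, which ties actin to myosin and restrains the motor, rose from 4.14 ± 0.326 to 11.4 ± 1.14 CPM (log2 fold change 1.46, SE 0.196, adjusted p = 1.93e-04). MYH14, a non-muscle myosin heavy chain, fell from 7.78 ± 0.133 to 4.40 ± 0.535 CPM (-0.82, adjusted p = 0.0113). Its call was lost without MC-F7 replicate 2 or MT-F7 replicate 2 (adjusted p up to 0.0575). The more abundant non-muscle heavy chain MYH9 rose from 488 ± 23.3 to 695 ± 41.3 CPM (0.51, adjusted p = 0.0252). That call held in 2 of the 6 fits with 1 library left out (adjusted p up to 0.104). MYH10, at 133 ± 43.3 and 105 ± 13.3 CPM, did not pass (-0.35, adjusted p = 0.280). MYL6B, an essential light chain, had a log2 fold change of -0.57 (adjusted p = 0.0453), overlapped between the groups and passed in only 1 of the 6 fits with 1 library left out.

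Of SRF and its cofactors, 7 were tested, and none rose while 2 fell in edgeR; at an unadjusted p under 0.05, 1 was higher and 2 were lower, and in DESeq2 0 were higher and 2 lower. SRF itself, at 64.8 ± 5.99 and 68.1 ± 7.26 CPM, had a log2 fold change of 0.07 (adjusted p = 0.776). MRTFA was at 34.8 ± 7.5 and 38.0 ± 11 CPM (0.13, adjusted p = 0.717).

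MRTFB, the second monomer-sensing cofactor, had 10.04, 13.8 and 17.3 CPM in MC-F7 and 6.02, 6.80 and 7.77 CPM in MT-F7. Its log2 level fell by 1.00 (SE 0.221, adjusted p = 0.00599), with all MT-F7 libraries below those of MC-F7. FHL2, a LIM protein that binds SRF, fell from 54.1 ± 10.1 to 33.6 ± 1.3 CPM (-0.69, adjusted p = 0.00935). The ETS partners ELK1 (0.22) and ELK4 (0.15) and the LIM protein FHL1 (0.47) did not pass, and MYOCD, the cofactor of smooth and cardiac muscle, had 0 counts in all MC-F7 libraries and at most 0.154 CPM in MT-F7. Such counts per gene measure the RNA of the cofactors and not where their proteins were in the cell.

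Of 18 filament nucleators, 0 rose in edgeR, in DESeq2 and at an unadjusted p under 0.05, and 1 fell. This was the formin DIAPH1, at 31.8, 48.2 and 60.5 CPM in MC-F7 and 20.9, 22.1 and 34.1 CPM in MT-F7 (log2 fold change -0.86, SE 0.244, adjusted p = 0.0215). Its groups overlapped, and it passed in 2 of the 6 fits with 1 library left out, with adjusted p up to 0.0913.

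Of 18 genes of monomer binding and filament turnover, 1 rose and 1 fell. GSN, or gelsolin, which severs and caps filaments, had 139, 121 and 95.9 CPM in MC-F7 and 235, 257 and 217 CPM in MT-F7, a log2 fold change of 1.00 (SE 0.168, adjusted p = 9.88e-04). LMOD1, the leiomodin that nucleates filaments in smooth muscle, fell from 22 ± 2.23 to 12.4 ± 0.775 CPM (-0.82, adjusted p = 0.00316). Both calls held in all 6 fits with 1 library left out.

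Of 16 crosslinkers and membrane linkers, 4 rose and 1 fell. ANLN, or anillin, a scaffold of the contractile ring, rose from 6.27 ± 1.54 to 11.6 ± 1.40 CPM (log2 fold change 0.89, adjusted p = 0.0107). PLS3, a plastin that bundles filaments, rose from 18.0 ± 5.31 to 28.2 ± 4.16 CPM (0.65, adjusted p = 0.0433), and VIL1, the villin of microvilli, fell from 1.79 ± 0.530 to 0.541 ± 0.368 CPM (-1.71, adjusted p = 0.0232). The calls of PLS3 and VIL1 each held in only 2 of the 6 fits with 1 library left out (adjusted p up to 0.155 and 0.0950).

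Of 21 focal adhesion and stress fibre proteins, 2 rose and 3 fell. PARVA, or α-parvin, which links integrins to actin, rose from 14.0 ± 4.0 to 28.9 ± 6.52 CPM (log2 fold change 1.04, adjusted p = 0.00619). PDLIM1, a partner of α-actinin, had 29.2, 24.6 and 18.3 CPM in MC-F7 and 9.16, 9.66 and 8.24 CPM in MT-F7 (-1.41, SE 0.196, adjusted p = 2.38e-04). SYNPO, or synaptopodin, another protein that binds α-actinin, fell from 2.34 ± 0.298 to 0.732 ± 0.193 CPM (-1.67, adjusted p = 0.00536). These 3 calls held in all 6 fits with 1 library left out.

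**Figure D5:**
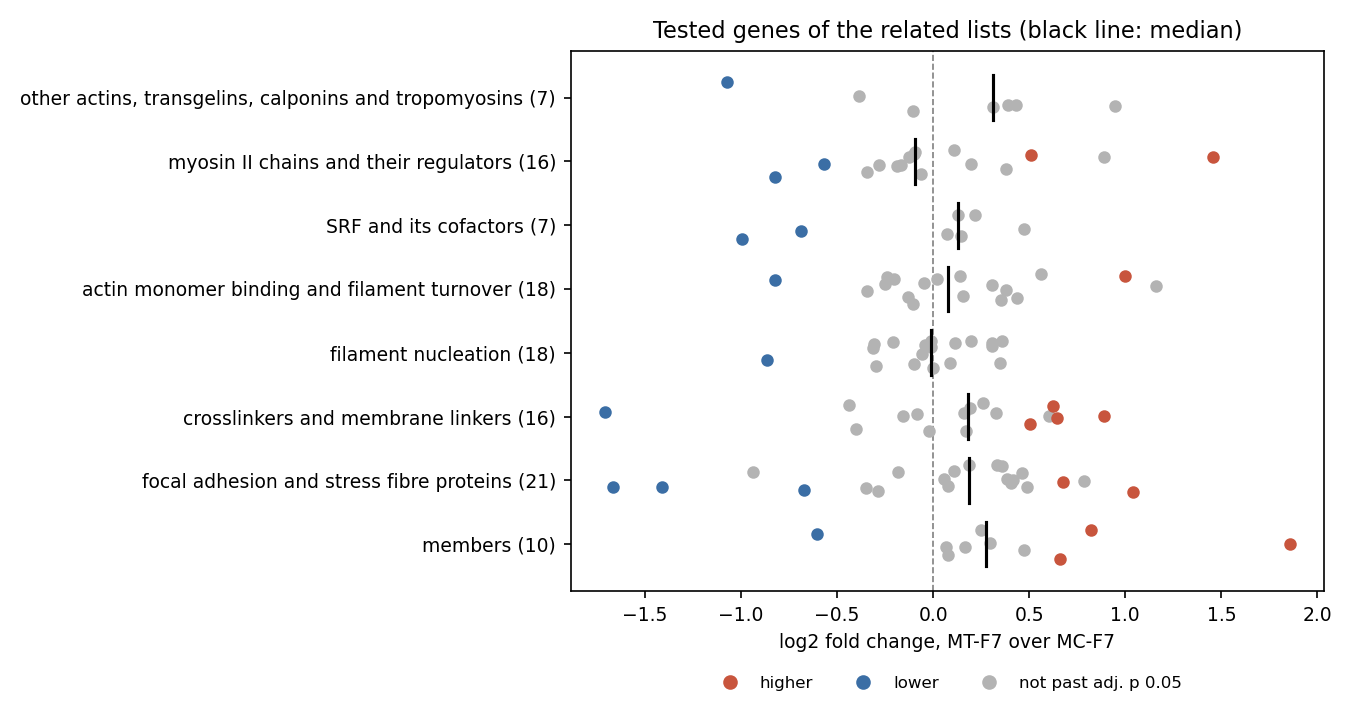
Log2 fold change of MT-F7 over MC-F7 (horizontal axis) of each tested gene of the members and of 7 related lists, with the number of tested genes after each name; red points are higher and blue points lower at an adjusted p under 0.05, grey points did not pass, and black lines are medians. ACTA2, at 1.86, lies farther to the right than any gene of these lists.

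Since several members are known from fibroblasts and smooth muscle, markers of these cells were set beside them. Of 15 fibroblast markers tested, 5 rose and 0 fell in edgeR and in DESeq2, and at an unadjusted p under 0.05 6 were higher and 1 was lower. The 5 in edgeR were 33.3% of the markers, where 23.2% of all tested genes passed and 11.9% were higher. With so few markers this is a description. The collagen COL3A1 rose from 14.6 ± 1.99 to 45.8 ± 10.3 CPM (log2 fold change 1.65, adjusted p = 8.06e-05). The matrix genes FBN1 (1.17), POSTN (1.24) and COL5A1 (0.79) and the receptor PDGFRB (0.93) also rose, where POSTN lost its call without MT-F7 replicate 2 (adjusted p = 0.0591) and PDGFRB without MC-F7 replicate 1, MC-F7 replicate 2 or MT-F7 replicate 3 (up to 0.0655).

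COL1A1, the most abundant of these markers, was at 205 ± 31.4 and 268 ± 15.6 CPM and did not pass (log2 fold change 0.39, adjusted p = 0.0942). COL1A2, DCN, LUM, THY1, PDGFRA, TWIST1, LOX and S100A4 did not pass either, with log2 fold changes between -0.32 and 0.43. PRRX1, a homeobox gene of mesenchyme under 1 CPM and named after its values were seen, was lower in every MT-F7 library (log2 fold change -1.61, SE 0.556) and just missed the threshold (adjusted p = 0.0537). Summed, the markers had 335 to 402 CPM in MC-F7 and 516 to 558 CPM in MT-F7, none of them at 0 in every library. The sum, of which COL1A1 was the largest part, was higher in every MT-F7 library. ACTA2, TAGLN and TPM2 were higher too, and the part of the markers in those results was not tested.

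The smooth muscle markers did not move as 1 group. Of 6 tested, DES, or desmin, rose from 15.0 ± 2.70 to 30.0 ± 2.78 CPM (log2 fold change 1.00, adjusted p = 0.00132), and ACTG2, LMOD1 and CNN1 fell. MYH11, the defining myosin heavy chain of smooth muscle, was at 3.53 ± 0.705 and 2.91 ± 0.300 CPM and SMTN, or smoothelin, at 51.5 ± 4.40 and 50.6 ± 6.37 CPM, neither past the threshold. MYOCD and SYNPO2 were at or near 0 in all libraries. The sum was 292 to 349 CPM in MC-F7 and 208 to 245 CPM in MT-F7, lower in every MT-F7 library. It includes the member CNN1 (mean 152 and 99.9 CPM) and ACTG2 (70.6 and 33.6 CPM). Both falls are given above, so the sum is not separate from them. ACTA2 and TAGLN, which this list leaves out, were higher.

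Of 10 skeletal and cardiac muscle markers, 6 were tested, 2 rose and 2 fell, and MYOG, the myogenin of skeletal muscle, had 0 counts in every library. Their sum was 223 to 300 CPM in MC-F7 and 222 to 261 CPM in MT-F7. Of the 8 markers of pluripotent stem cells tested, which check the label of the cells, all were detected, 1 at a mean under 1 CPM. Of them 7 fell, or 87.5% against 23.2% of all tested genes past the threshold, with a median log2 fold change of -1.61 over the 8. Their sum was 1369 to 2055 CPM in MC-F7 and 743 to 860 CPM in MT-F7. The part of this difference in the members' changes was not tested.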

How the data were processed

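RNA-seq libraries of MC-F7 and MT-F7 were analysed (3 each, grouped by the labels). After filtering, the authors mapped the reads to Ensembl's cattle genome using HISAT2 2.0.5, assigned them to genes by featureCounts 1.5.0-p3 (versions from the submitters' processing notes, which also name edgeR) and deposited raw counts per Entrez gene. The genome build is not given in the sources used here, so no coordinates are given, and gene names came from a RefSeq table. The authors also deposited values they call TPM. Each column added up to between 154763 and 164394 over the 21357 genes used, not to 1000000, and each member had a constant TPM per count across libraries, so these values are not scaled for library depth. They were rescaled for levels per length.

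Genes that passed filterByExpr (at least 10 counts, 15 in total) were normalized and compared with edgeR 4.0.16 in R 4.3.3. TMM factors were 0.971 to 1.04, and the quasi-likelihood test was two-sided with no block. The fit was also run on simulated counts with the same spread for every gene and larger changes than most members had. That run does not speak to the smaller changes given here, and its outcome is not reported. The common dispersion was 0.0342, a spread of 18.5% between libraries. Ratios were tested by exact permutation over all 20 splits (Python 3.11.15, numpy 2.4.6). DESeq2 1.42.0, limma 3.58.1 on log2(TPM + pseudocount), other factors and filters, a replicate block and leaving out libraries were alternatives.

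The members and lists were chosen with earlier results of these data known. All members, reference genes, SRF and its cofactors, and fibroblast and smooth muscle markers with a mean of at least 1 CPM are named. So are, in each related list, the 3 largest absolute log2 fold changes past the threshold with a mean of at least 1 CPM. ACTA1, ACTC1, MYH9, MYH10, PRRX1, MYOG and SYNPO2 were added after their values were seen. SOX2, LIN28B and TMSB15A, which are on the lists, were not analysed here, nor were feeder reads, promoters and protein sequences. A reference gene and a related list are not reported here.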

Additional observations from a re-analysis of the deposited data

How the results depend on the processing

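The 10 members kept their direction under the 18 alternatives to the edgeR fit, except ACTG1 (log2 fold change -0.11 without MC-F7 replicate 3 and -0.08 without MT-F7 replicate 2; 0.26 at the other end) and CNN2 (-0.013 without MC-F7 replicate 3, -0.0041 without MT-F7 replicate 3, up to 0.14 with 1 library left out, -0.055 with both replicate 3 libraries left out, and up to 0.20 over all alternatives). ACTA2 passed in each alternative, 4 members passed in none, and CNN1, TAGLN, TPM2, TAGLN2 and TPM1 changed sides of the threshold in some. With 1 library left out, the number of members past it was 1 to 4 (1 without MT-F7 replicate 2, 2 without MC-F7 replicate 2), that of related genes 13 to 25 and that of all genes 1914 to 3093. With the replicate block, 4674 genes, 42 related genes (26 higher, 16 lower) and 5 members passed, TAGLN2 added. Deviations of libraries with the same number correlated at 0.134, 0.0445 and 0.417, all positive. The labels state no pairing, so the main fit had no block, but these values do not exclude a spread shared by number. limma on log2(TPM + 1), where the deposited TPM is not scaled for depth, called 12 related genes and 2367 genes in all, 1547 higher and 820 lower against 1553 and 1463 in edgeR; with a mean TPM of at least 1 it called 13 and 1399, and on rescaled TPM 2 members. Leaving out both replicate 3 libraries gave 34 related genes. In the 18 alternatives the median log2 fold change of all genes lay between -0.02 and 0.08. Causes of these changes were not tested. The promoter motif search that had been planned was not run, because no promoter sequences were at hand.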
